A study of Rattus norvegicus with 16 samples.

Results

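Intercalated discs are the specialised ends where neighbouring heart muscle cells meet. Connexins assemble there into gap junction channels that pass the electrical impulse from cell to cell. Adherens junctions, built on N-cadherin and catenins, anchor the contractile filaments, and desmosomes, built on desmosomal cadherins, plakophilin and desmoplakin, anchor the intermediate filaments. In the ventricle both kinds of anchoring junction share plakoglobin, and inherited faults in desmosome genes cause arrhythmogenic cardiomyopathy in humans. The genes described here are 9 of this structure. They comprise the gap junction genes Gja1, Gja5 and Gjc1, the adherens junction cadherin gene Cdh2, the plakoglobin gene Jup, the desmosome genes Dsp, Pkp2 and Dsg2, and the scaffold gene Tjp1. Every probe set whose annotated symbol was exactly 1 of these names was taken, which gave 16 probe sets of the 31042 on the array and 9 of the 14217 named genes. The probe set with the highest mean over all arrays stands for its gene, and the other 7 probe sets are shown beside it.

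RNA was taken from the left ventricle of 16 female rats aged 7 months, with 1 Affymetrix RAE 230 2.0 array per rat. Rats of generation 16 came from a pair of lines derived from N:NIH stock by selection on a treadmill test at about 11 weeks of age, the High Capacity Runners (HCR) and the Low Capacity Runners (LCR), so each line is 1 selected population. The 4 groups of 4 rats were HCR trained, HCR sedentary, LCR trained and LCR sedentary. Trained rats ran uphill at 25 degrees in sessions of 1.5 hours on 5 days a week for 8 weeks, with 8-minute intervals at 85 to 90% of maximal oxygen uptake and 2-minute recoveries at 50 to 60%, while sedentary rats were of the same age and did not train. Values are log2 expression values as the authors normalised them, and differences below are differences of log2 values, with HCR set against LCR or trained against sedentary rats. A difference was called where the Benjamini-Hochberg adjusted p of limma over all 31042 probe sets was 0.05 or less.

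The heart muscle identity of the tissue was borne out by its markers. All 9 measured cardiomyocyte markers of a list of 10 (Myh6, Tnnt2, Myl2, Ryr2 and others) had means at or above the median probe set. Their mean level per array lay between 13.60 and 13.68 in HCR trained, 13.59 and 13.64 in HCR sedentary, 13.62 and 13.67 in LCR trained and 13.61 and 13.64 in LCR sedentary rats. Array medians lay between 5.851 and 5.949. The spread of values on an array, as its interquartile range, averaged 2.02 ± 0.057 over the 4 arrays of HCR sedentary rats and 2.17 ± 0.026 over the 4 of LCR sedentary rats (SD). Xist, which is transcribed from the inactive X chromosome of female cells, read 3.76 to 4.94 on the array of HCR sedentary rat 5 and 7.56 to 10.34 on the other 15 arrays, although that rat is labelled female. The sedentary line differences and the HCR training differences rest in part on this array, and their values without it are given beside them where they moved most. The line by training interaction and the averaged differences use this array too, and their values without it are given for some genes.

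None of the 9 genes was called in any of the 7 comparisons made. In sedentary rats 0 of 9 were called between the lines, against a background of 4.99% of all probe sets, and in trained rats 0 of 9, against 0.0966%. Training gave 0 of 9 called genes within HCR (background 0%) and 0 of 9 within LCR (background 0.00322%). The line by training interaction gave 0 of 9 (background 0%), the line difference averaged over training 0 of 9 (background 3.84%), and the training difference averaged over the lines 0 of 9 (background 0.00644%). Nor was any of the other 7 probe sets called by limma in these comparisons. With backgrounds this small, a count of 0 of 9 says little about these genes in particular in any of the 7 comparisons. The measured sizes and their intervals carry the information.

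**Figure D1:**
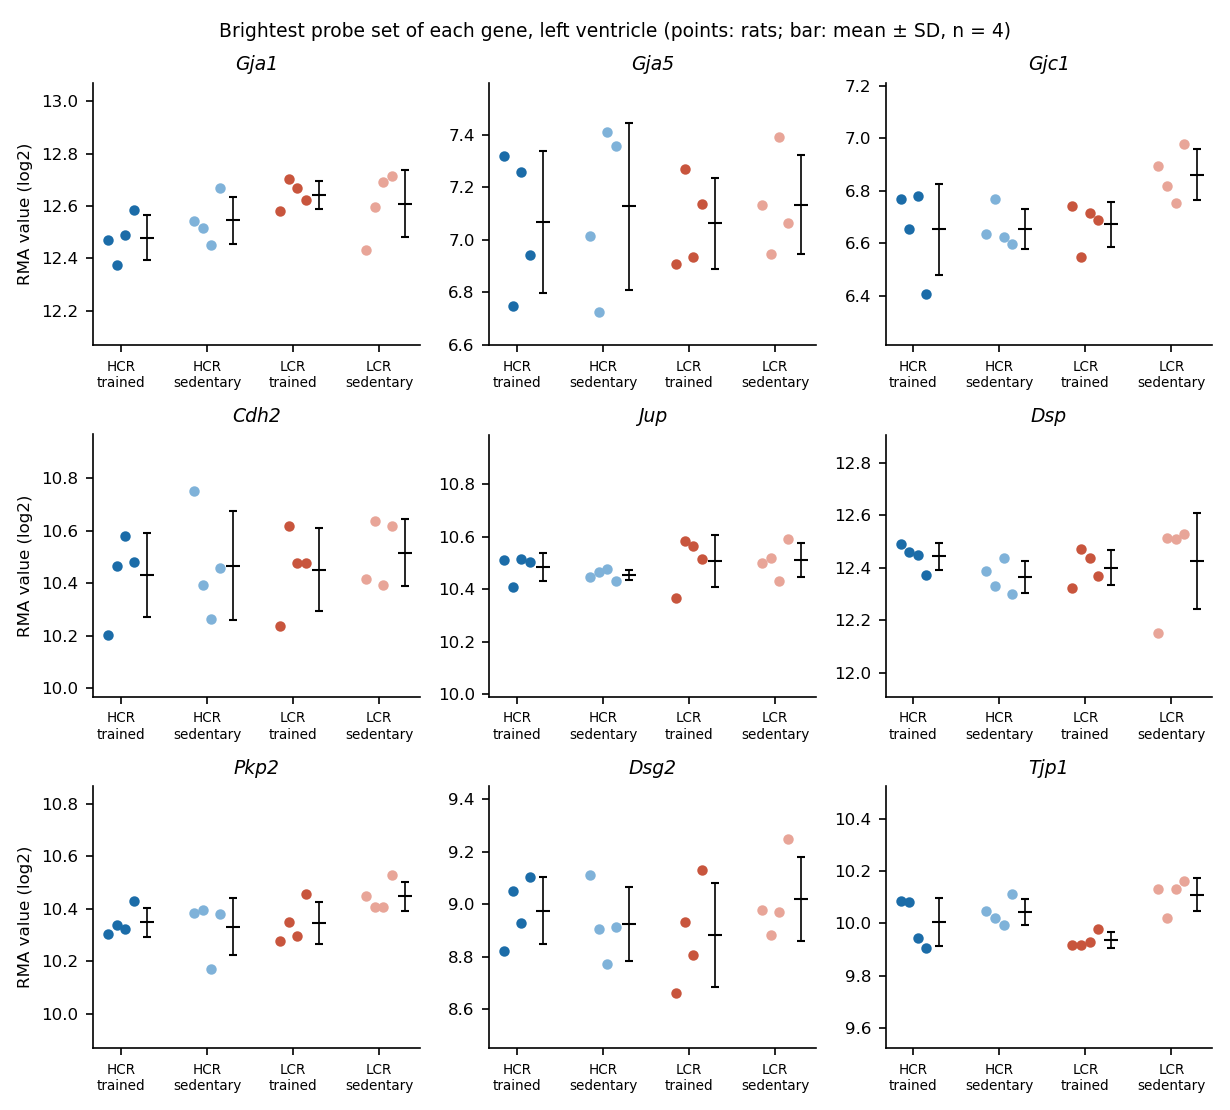
Log2 value of the brightest probe set of each of the 9 genes on every array, in 4 groups of 4 rats; points are rats, and the bar is the mean with its SD. Each vertical axis spans 1 log2 unit around the gene's mean; Gjc1 and Tjp1 read lower in LCR trained than in LCR sedentary rats with no overlap, and neither difference was called.

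Gja1 encodes the main connexin of working ventricular muscle. On its brightest probe set, 1372002_at, the values were 12.47, 12.38, 12.49 and 12.58 in HCR trained rats, 12.54, 12.52, 12.45 and 12.67 in HCR sedentary rats, 12.58, 12.70, 12.67 and 12.62 in LCR trained rats, and 12.43, 12.60, 12.69 and 12.71 in LCR sedentary rats. Among trained rats the HCR values were lower and met the LCR values only at their edges. The line difference was -0.16 ± 0.07 in trained rats (SE, 95% interval -0.31 to -0.02, limma adjusted p = 0.619) and -0.06 ± 0.07 in sedentary rats (adjusted p = 0.558). Averaged over training it was -0.11 ± 0.05 (interval -0.22 to -0.01, limma adjusted p = 0.165). In fold terms this interval runs from 0.861 to 0.993 times the LCR level. Without HCR sedentary rat 5 the averaged line difference was -0.10, and after quantile normalisation it was -0.09 (limma adjusted p = 0.292 and 0.341). Training differences of Gja1 were -0.06 ± 0.07 in HCR and 0.04 ± 0.07 in LCR, and the span between its highest and lowest group mean, 0.163, was 1.76 times the SD within groups.

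The dimmer Gja1 probe sets did not follow the bright one. Probe set 1369640_at averaged 7.80 over the arrays and correlated with the bright one at r = -0.568 over the 16 arrays, and 1369639_at averaged 4.87 and correlated with it at r = -0.0623. The line differences in sedentary rats were 0.17 ± 0.19 and 0.28 ± 0.08 on these probe sets, against -0.06 ± 0.07 on the bright one. Averaged over training they were 0.17 ± 0.13 and 0.16 ± 0.06 (limma adjusted p = 0.451 and 0.115), against -0.11 ± 0.05 on the bright one. On 1369639_at the values were 5.01, 5.02, 5.11 and 5.04 in HCR sedentary rats, against 4.84, 4.77, 4.66 and 4.81 in LCR sedentary rats. These did not overlap (background 18.3%, limma adjusted p = 0.0578). The difference was 0.26 without HCR sedentary rat 5 (adjusted p = 0.147). That probe set falls in the second dimmest of 10 equal bins of brightness, where the median probe set read 0.07 higher in HCR sedentary rats.

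Gja5 encodes a connexin of the atria, the conduction fibres and arterial endothelium. Its 2 probe sets averaged 7.10 and 5.32. On the brighter one, 1368473_at, the lowest values were 6.75 in HCR trained, 6.73 in HCR sedentary, 6.91 in LCR trained and 6.95 in LCR sedentary rats, and the highest were 7.32, 7.41, 7.27 and 7.39 in the same order of groups. The groups overlapped throughout. Its spread within groups, an SD of 0.245, was the widest of the 9 genes, and only 5.34% of all probe sets had a wider one. The line differences were 0.01 ± 0.15 in trained and -0.01 ± 0.15 in sedentary rats, with intervals from -0.32 to 0.33 and from -0.33 to 0.32, so differences of up to about 1.25-fold either way lie within them. Without HCR sedentary rat 5 the sedentary difference was -0.10 and the training difference in HCR 0.04, against -0.06 with it. The dimmer probe set, 1387207_at, correlated with the brighter one at r = 0.293 over the 16 arrays. Its line differences were 0.04 ± 0.11 in trained and 0.20 ± 0.11 in sedentary rats (limma adjusted p = 0.978 and 0.231). Averaged over training its line difference was 0.12 ± 0.08 (limma adjusted p = 0.338). Its training differences were -0.13 ± 0.11 in HCR and 0.03 ± 0.11 in LCR. Markers of other cells that carry this connexin overlapped between the groups in their list means, and 1 of the 4 atrial markers was called for the line difference averaged over training. The mean of 4 measured arterial endothelial markers ran from 7.59 to 7.72 in HCR trained, 7.56 to 7.74 in HCR sedentary, 7.56 to 7.74 in LCR trained and 7.53 to 7.67 in LCR sedentary rats. That of 4 atrial markers ran from 7.44 to 8.29, 7.79 to 8.92, 7.22 to 8.37 and 7.84 to 8.38 in these groups. In whole tissue, fewer cells of a type and less RNA per cell cannot be told apart.

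Gjc1 encodes a connexin prominent in the early heart and in the conduction nodes. Its single probe set read 6.77, 6.66, 6.78 and 6.41 in HCR trained rats, 6.64, 6.77, 6.62 and 6.60 in HCR sedentary rats, 6.74, 6.55, 6.72 and 6.69 in LCR trained rats, and 6.89, 6.82, 6.76 and 6.98 in LCR sedentary rats. The LCR sedentary rats were the high group. HCR sedentary rats differed from them by -0.21 ± 0.08 (95% interval -0.37 to -0.04, limma adjusted p = 0.113), with 1 HCR rat inside the LCR range. LCR trained rats differed from them by -0.19 ± 0.08 with no overlap between the groups (interval -0.36 to -0.02, limma adjusted p = 0.834). Both comparisons share the same 4 LCR sedentary arrays. The sedentary line difference of Gjc1 was -0.20 without HCR sedentary rat 5 (limma adjusted p = 0.23). Trained rats of the lines differed by -0.02 ± 0.08. The mean of 6 conduction system markers ran from 6.372 to 6.523 in HCR trained, 6.494 to 6.608 in HCR sedentary, 6.326 to 6.585 in LCR trained and 6.307 to 6.497 in LCR sedentary rats, and its part in the Gjc1 values was not tested. Among the brightest probe sets of the 9 genes, the lowest adjusted p in any setting was that of Gjc1 in sedentary rats with the arrays centred on their medians (-0.26, adjusted p = 0.0594).

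Promoters are shown for the 2 best known cardiac connexin genes, since the factors that bind them were also measured. The sequences are the 250 bases before the RefSeq start in the rat build GRCr8, on the sense strand, with motif matches in capitals. The motifs searched on both strands were the T-box core GGTGT, the Nkx2-5 element TNAAGTG and the AP-1 element TGANTCA, which are held by 36.6%, 9.89% and 6.34% of 33469 such windows. Gja1 lies at chr20:36302314-36302563 on the plus strand and has 1 AP-1 match, 58 bases before the start. Gja5 lies at chr2:187290977-187291226 on the plus strand and has 1 T-box match, 221 bases before the start.
Gja1: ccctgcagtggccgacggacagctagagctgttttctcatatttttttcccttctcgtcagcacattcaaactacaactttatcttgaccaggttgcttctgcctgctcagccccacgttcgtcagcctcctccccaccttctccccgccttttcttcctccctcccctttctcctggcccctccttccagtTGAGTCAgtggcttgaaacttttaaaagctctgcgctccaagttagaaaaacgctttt
Gja5: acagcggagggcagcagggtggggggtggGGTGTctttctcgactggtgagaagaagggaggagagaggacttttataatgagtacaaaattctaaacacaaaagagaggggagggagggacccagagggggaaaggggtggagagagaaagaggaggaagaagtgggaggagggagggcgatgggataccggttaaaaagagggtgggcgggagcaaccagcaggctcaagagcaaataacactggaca
A match is a run of letters in this window and shows no binding.

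Of 11 transcription factor genes known to act on cardiac connexin genes (from Nkx2-5, Tbx5 and Gata4, which activate, to Tbx2 and Tbx3, which repress in the mouse), 1 was called in 1 comparison. At an unadjusted p of limma under 0.05 there were 6 of the 11 in the sedentary line difference (background 27.7%). In the averaged line difference there were 2 of the 11 (background 24.1%). The called gene, Tbx2, was higher in HCR averaged over training (0.18 ± 0.05, limma adjusted p = 0.0470), on a probe set averaging 6.225. In that comparison 3.84% of all probe sets were called. Tbx2 values ran from 6.21 to 6.36 in HCR trained, 6.27 to 6.45 in HCR sedentary, 6.04 to 6.27 in LCR trained and 6.02 to 6.24 in LCR sedentary rats. The other 2 Tbx2 probe sets gave 0.05 and 0.04, neither of them called, and the call held in 7 of 24 other settings. For Tbx2 the array centring and the quantile normalisation both ended the call (adjusted p = 0.0592 and 0.0689).

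Cdh2 encodes N-cadherin, the adhesion molecule of the adherens junction. Its 3 probe sets averaged 10.47, 9.385 and 6.20. On the brightest, 1368642_at, the values were 10.20, 10.46, 10.58 and 10.48 in HCR trained, 10.75, 10.39, 10.26 and 10.46 in HCR sedentary, 10.24, 10.62, 10.48 and 10.48 in LCR trained, and 10.42, 10.64, 10.40 and 10.62 in LCR sedentary rats. All groups overlapped. The line differences were -0.02 ± 0.11 in trained and -0.05 ± 0.11 in sedentary rats, and the training differences -0.03 ± 0.11 in HCR and -0.06 ± 0.11 in LCR. Without HCR sedentary rat 5 the sedentary line difference was 0.02 and the HCR training difference -0.10. The second probe set gave 0.00 ± 0.09 and -0.07 ± 0.09 for the line and 0.07 ± 0.09 and 0.01 ± 0.09 for training, in the same order. Without HCR sedentary rat 5 its sedentary line difference was 0.0075 and its HCR training difference -0.0034. The third gave -0.16 ± 0.08 in trained rats (unadjusted p = 0.0613 and limma adjusted p = 0.708), -0.02 ± 0.08 in sedentary rats, and -0.04 ± 0.08 and 0.09 ± 0.08 for training in HCR and LCR.

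Jup encodes plakoglobin, the catenin shared by adherens junctions and desmosomes. It was among the steadiest genes of the array. Its values were 10.51, 10.41, 10.52 and 10.51 in HCR trained, 10.45, 10.46, 10.48 and 10.43 in HCR sedentary, 10.37, 10.58, 10.57 and 10.51 in LCR trained, and 10.50, 10.52, 10.43 and 10.59 in LCR sedentary rats. The SD within groups was 0.0652, and 93.6% of all probe sets had a larger one. Its line differences were -0.02 ± 0.06 in trained and -0.06 ± 0.06 in sedentary rats, and the 95% intervals ran from -0.14 to 0.09 and from -0.17 to 0.06.

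Dsp encodes desmoplakin, which ties the desmosome to desmin filaments. On its bright probe set, 1388506_at, the values were 12.49, 12.46, 12.45 and 12.37 in HCR trained, 12.39, 12.33, 12.44 and 12.30 in HCR sedentary, 12.32, 12.47, 12.44 and 12.37 in LCR trained, and 12.15, 12.51, 12.51 and 12.53 in LCR sedentary rats. LCR sedentary rat 2 stood apart below the other 3 rats of its group. With that rat the sedentary line difference was -0.06 ± 0.07, and without it -0.15 ± 0.06 (limma adjusted p = 0.597 and 0.105). The training difference in HCR was 0.08 ± 0.07 (interval -0.08 to 0.24). The dim second probe set, averaging 5.955, read 5.92, 5.85, 5.91 and 5.90 in HCR trained rats and 6.03, 5.97, 6.12 and 5.93 in LCR trained rats. These did not overlap (background 3.14%) and differed by -0.12 ± 0.06 (limma adjusted p = 0.708). Its line difference was also -0.12 ± 0.06 in sedentary rats, which overlapped, and -0.12 ± 0.04 averaged over training (limma adjusted p = 0.187 and 0.0985). After quantile normalisation the averaged one was -0.15 (adjusted p = 0.0599).

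Pkp2 encodes plakophilin, which links desmosomal cadherins to desmoplakin. Its single probe set read 10.30, 10.34, 10.32 and 10.43 in HCR trained, 10.38, 10.40, 10.17 and 10.38 in HCR sedentary, 10.28, 10.35, 10.30 and 10.46 in LCR trained, and 10.45, 10.41, 10.41 and 10.53 in LCR sedentary rats. In sedentary rats every HCR value lay below every LCR value. The difference was -0.11 ± 0.06 (95% interval -0.24 to 0.01, limma adjusted p = 0.228). It was -0.06 ± 0.06 without HCR sedentary rat 5, which was the lowest and is also the array with low Xist, and the HCR training difference was 0.02 with that rat and -0.04 without it. In trained rats the lines differed by 0.00 ± 0.06. The line by training interaction of Pkp2 was 0.12 ± 0.09, and 0.06 without HCR sedentary rat 5 (limma adjusted p = 0.642 and 0.861).

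Dsg2 encodes the main desmosomal cadherin of heart muscle. Its values were 8.82, 9.05, 8.93 and 9.10 in HCR trained, 9.11, 8.90, 8.77 and 8.91 in HCR sedentary, 8.66, 8.93, 8.81 and 9.13 in LCR trained, and 8.98, 8.88, 8.97 and 9.25 in LCR sedentary rats. All groups overlapped. The line differences were 0.09 ± 0.10 in trained and -0.09 ± 0.10 in sedentary rats, and the training differences 0.05 ± 0.10 in HCR and -0.14 ± 0.10 in LCR. Without HCR sedentary rat 5 the sedentary line difference was -0.04 and the HCR training difference -0.0023. The difference between the training responses of the lines, 0.19 ± 0.15 (interval -0.13 to 0.50), was not called (limma adjusted p = 0.663). Without HCR sedentary rat 5 it was 0.13 (adjusted p = 0.843).

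Tjp1 encodes a scaffold protein that binds the tail of the main ventricular connexin at the edge of gap junctions. On its bright probe set, 1372473_at, the values were 9.92, 9.92, 9.93 and 9.98 in LCR trained rats, against 10.13, 10.02, 10.13 and 10.16 in LCR sedentary rats. No trained rat of this line reached a sedentary one. The difference was -0.17 ± 0.05 (95% interval -0.29 to -0.06, unadjusted p = 0.00573 and limma adjusted p = 0.628). In HCR the values were 10.09, 10.08, 9.95 and 9.91 in trained rats and 10.05, 10.02, 9.99 and 10.11 in sedentary rats, a difference of -0.04 ± 0.05. The difference between the lines in this response was 0.14 ± 0.08 and was not called (limma adjusted p = 0.563). After quantile normalisation the training difference of Tjp1 was -0.11 in HCR and -0.17 in LCR (limma adjusted p = 0.391 and 0.474), and the difference between them 0.06 (adjusted p = 0.862). The dim Tjp1 probe set, averaging 5.30, differed by 0.01 ± 0.08 between LCR trained and LCR sedentary rats. Its sedentary line difference was 0.17 ± 0.08, and 0.13 without HCR sedentary rat 5 (limma adjusted p = 0.155 and 0.367). Its HCR training difference was -0.14 ± 0.08, and -0.10 without that rat.

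**Figure D2:**
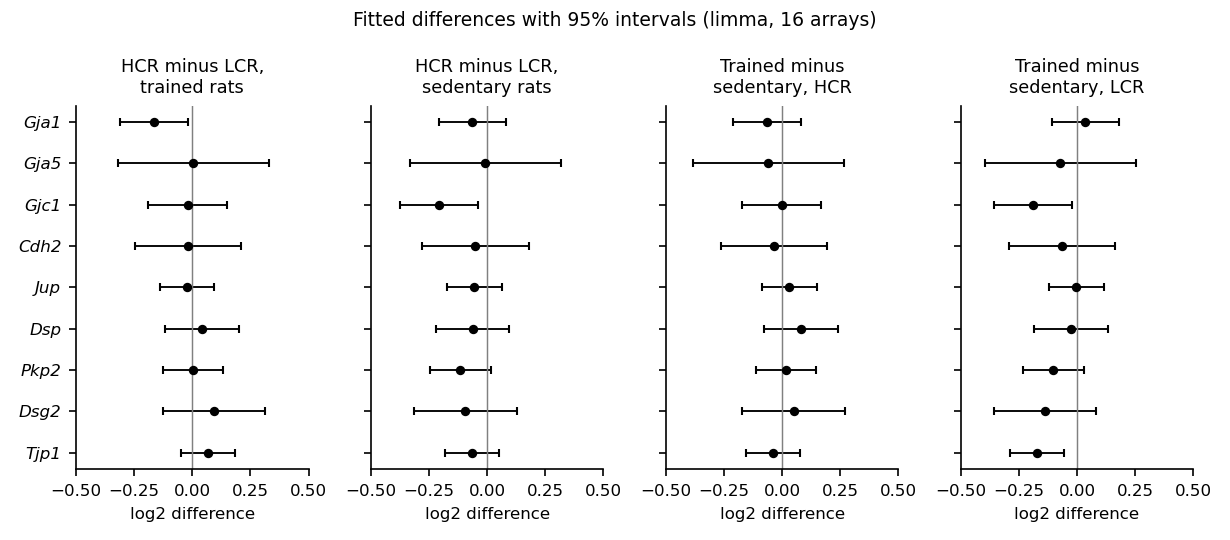
Fitted log2 differences of the brightest probe set of each gene, with 95% intervals from limma, for the line in trained and sedentary rats and for training in HCR and LCR. All 36 estimates lie between -0.21 and 0.09, and no interval reaches beyond -0.40 or 0.33.

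At an unadjusted p under 0.05 the count of the 9 genes was 1 in trained rats between the lines (Gja1, background 7.33%), 1 in sedentary rats (Gjc1, background 27.7%), 0 for training in HCR (background 13.9%) and 2 for training in LCR (Gjc1 and Tjp1, background 5.57%). The interaction gave 0 (background 9.88%), the averaged line difference 1 (Gja1, background 24.1%) and the averaged training difference 1 (Tjp1, background 9.24%). Arrays of the groups did not overlap for 0 of 9 genes between trained lines (background 3.14%), 1 between sedentary lines (Pkp2, background 18.3%), 0 for training in HCR (background 8%) and 2 for training in LCR (Gjc1 and Tjp1, background 2.82%). Neither Gjc1 nor Tjp1 passed the adjustment over all probe sets.

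All 9 genes read lower in HCR than in LCR sedentary rats, with differences from -0.21 to -0.01 and a median of -0.06. Of their 9 probe sets, 7 were among the brightest 10% of the array, and Gja5 and Gjc1 were not. In that brightest 10%, with a mean of 8.748 or more, 81.2% were lower in HCR sedentary rats and the median difference was -0.10, while the 5 dimmest of 10 equal bins had medians from 0.03 to 0.09. The 7 bright genes lay between -0.11 and -0.05. Gjc1, at -0.21, lay below the interquartile range of its own brightness bin, which had a median near 0 and a lower quartile of -0.14. Of the 7 other probe sets of these genes 4 were positive. After quantile normalisation of the summarised values 5 of the 9 genes were higher and 4 lower, with differences from -0.17 to 0.06, so a common direction of these genes in sedentary rats was seen on the deposited scale and after median centring of the arrays (9 lower, median -0.12) but not after that normalisation. Without HCR sedentary rat 5, 8 genes were lower and 1 higher, with differences from -0.20 to 0.02. In trained rats 5 were higher and 4 lower. Of 11 marker lists, 3 had means that did not overlap between the sedentary groups, where 18.3% of all single probe sets did not overlap. A share for means of lists was not computed. The mean of 7 fibroblast markers ran from 9.175 to 9.36 in HCR sedentary and 9.469 to 9.662 in LCR sedentary rats, that of 3 nerve markers from 5.804 to 5.934 and 5.52 to 5.64, and that of 5 adipocyte markers from 5.567 to 5.644 and 5.427 to 5.501 in the same order. Their part in these differences was not tested.

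**Figure D3:**
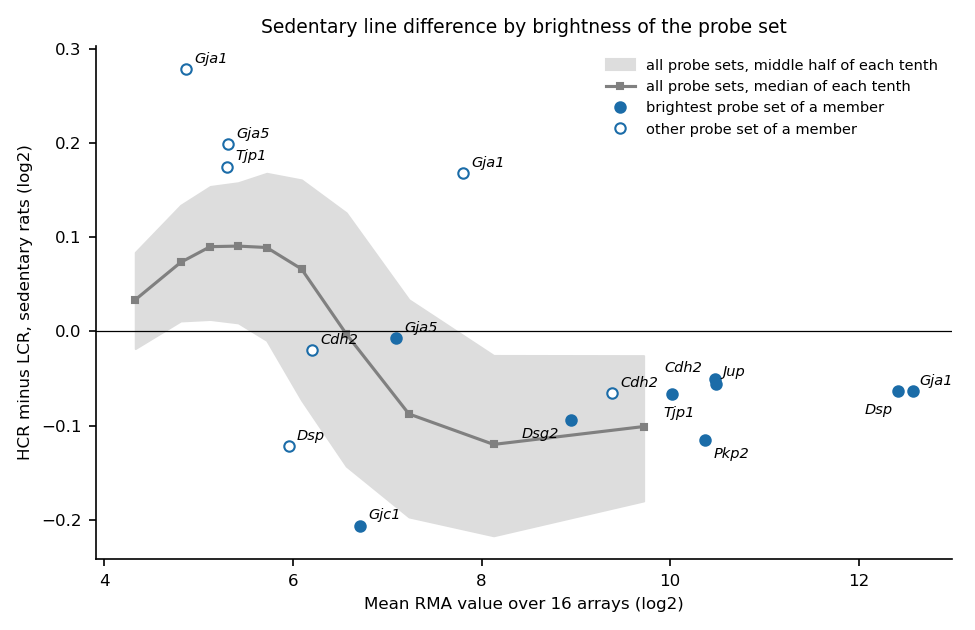
Sedentary line difference (HCR minus LCR, log2) against the mean level over 16 arrays (log2) for the 16 probe sets of the 9 genes; the grey line is the median and the band the interquartile range of all 31042 probe sets, in 10 equal bins of brightness. The probe sets of these genes in the brightest bin lie between -0.11 and -0.05 beside a median of -0.10 there, and the other probe sets of Gja1, Gja5 and Tjp1 lie between 0.17 and 0.28.

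The 4 group means of a gene lay close together. Their span ran from 0.0558 for Jup to 0.209 for Gjc1 and was less than 1 SD within groups for Gja5, Cdh2, Jup, Dsp and Dsg2. It was 1.47 SD for Pkp2, 1.76 for Gja1, 1.83 for Gjc1 and 2.75 for Tjp1. On the deposited scale LCR sedentary rats had the highest mean for 7 of the 9 genes, the exceptions being Gja1 (LCR trained) and Dsp (HCR trained). The share of all probe sets with that group highest was not counted. After quantile normalisation Gja5, Cdh2, Jup, Dsg2 and Tjp1 read higher in HCR sedentary than in LCR sedentary rats, by 0.03 to 0.06. Neighbours in the order of means differed by more than the SD within groups in 1 place for Gjc1, 1 for Pkp2 and 2 for Tjp1, and nowhere for the other 6 genes. For Tjp1 the order on the deposited scale was LCR sedentary, HCR sedentary, HCR trained and LCR trained.

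Between rats, Pkp2 and Dsg2 moved together, the closest of the 36 pairs. Over the 36 pairs of genes, deviations from the group means correlated at a median r of 0.178, with 22 pairs positive and a range from -0.354 for Gja1 and Gjc1 to 0.825 for Pkp2 and Dsg2. The values of Pkp2 and Dsg2 themselves correlated at r = 0.793 (Spearman rho = 0.791) over the 16 arrays, at 0.731 over the 8 HCR rats and 0.933 over the 8 LCR rats, and at 0.716 without the 2 rats farthest from the Pkp2 median. Cdh2 followed them less closely, at 0.625 with Dsg2 and 0.503 with Pkp2. The other desmosome gene, Dsp, did not follow them, at 0.104 with Dsg2 and -0.0981 with Pkp2. Its deviations from the group means gave 0.0425 and -0.226. These are descriptions of 16 arrays that share their processing, with no test. Pkp2 and Dsg2 correlated with the interquartile range of the array at 0.487 and 0.437, within the central 90% of all probe sets (-0.796 to 0.71), and the part of that range in their pairing was not tested.

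**Figure D4:**
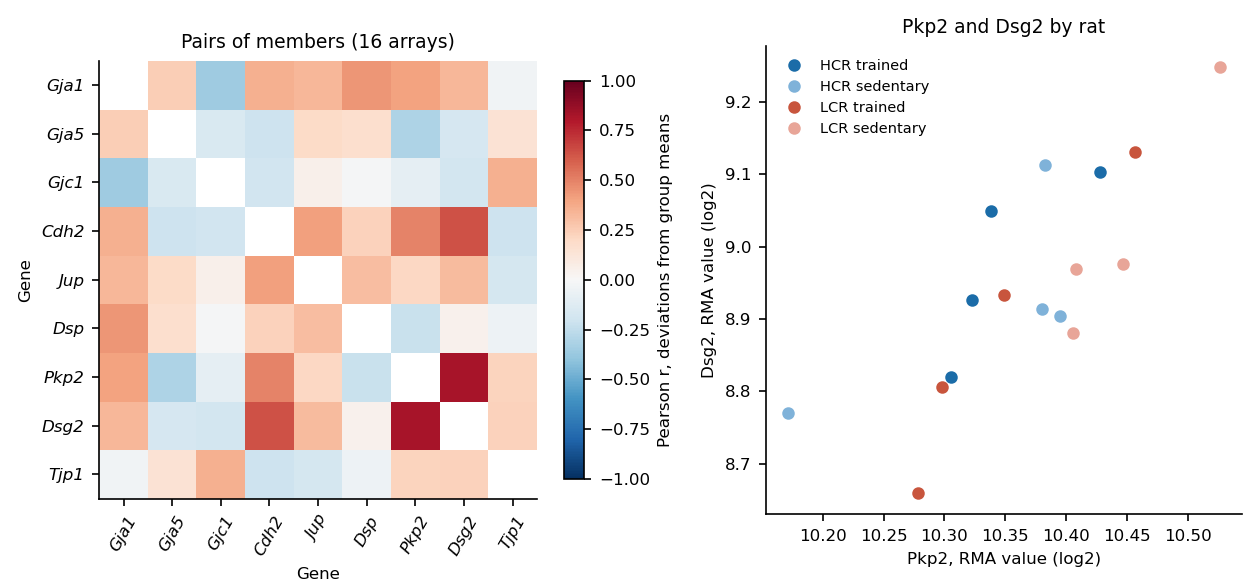
Left, Pearson correlation of deviations from the group means over 16 arrays for each pair of the 9 genes; right, log2 values of Pkp2 and Dsg2 for each rat, coloured by group. Pkp2 and Dsg2 form the darkest cell (r = 0.825), and rats of all 4 groups lie along the same band.

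By likeness of pattern over the 16 arrays, among 9487 other named genes at or above the median level, Herpud2 ranked first for Pkp2 (r = 0.915) and second for Dsg2 (r = 0.866), for which Capg ranked first (r = 0.873). The gene nearest to Tjp1 was Afdn (r = 0.873), which encodes the adherens junction protein afadin, and that nearest to Gja1 was Ptbp2 (r = 0.873). The nearest genes were Selenow for Gja5 (r = 0.705), Golgb1 for Gjc1 (r = 0.83), Suz12 for Cdh2 (r = 0.843), Prpf8 for Jup (r = 0.859) and Camk1 for Dsp (r = 0.836). Each is the highest of 9487 correlations and is given as a description.

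Other genes were taken from 6 further lists, of these junctions, of partners of the main ventricular connexin and of transcription factors. Of their 75 measured genes, 1 was lower in HCR sedentary rats (1.33% against 4.99% of all probe sets). Averaged over training 2 were higher in HCR, Tbx2 among them (2.67% against 3.84%). Counts this small say little about these lists. At an unadjusted p under 0.05 there were 22 of the 75 in the sedentary line difference (29.3% against 27.7%) and 16 in the averaged one (21.3% against 24.1%). None was called in the other 5 comparisons, where an unadjusted p under 0.05 was reached by 4 of the 75 between trained lines (5.33% against 7.33%), 9 for training in HCR (12% against 13.9%), 6 for training in LCR (8% against 5.57%), 7 in the interaction (9.33% against 9.88%) and 9 for the averaged training difference (12% against 9.24%). Among 14 catenins and other adherens junction genes, Pkp4, an armadillo protein of cell junctions, was lower in HCR sedentary rats (-0.37 ± 0.10, limma adjusted p = 0.0423). Its values ran from 9.22 to 9.53 in HCR sedentary and 9.44 to 10.00 in LCR sedentary rats, and its dim second probe set differed by 0.15 (not called). Quantile normalisation ended the Pkp4 call (-0.25, adjusted p = 0.121). Nectin2, an adhesion molecule of adherens junctions, was higher in HCR averaged over training (0.19 ± 0.04, limma adjusted p = 0.0256), with values from 6.06 to 6.25 in HCR trained, 6.18 to 6.38 in HCR sedentary, 5.92 to 6.02 in LCR trained and 6.03 to 6.18 in LCR sedentary rats. The other 2 Nectin2 probe sets gave 0.13 and 0.03 (adjusted p = 0.164 and 0.772), and the replicate block ended the Nectin2 call (adjusted p = 0.0705). Without HCR sedentary rat 5 neither was called (-0.32, adjusted p = 0.126 for Pkp4 and 0.18, adjusted p = 0.0576 for Nectin2), nor was Tbx2 (0.16, adjusted p = 0.0982).

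In each of the remaining lists no gene was called, and the gene of lowest p in the sedentary line difference is named. Among 10 other connexins and pannexins it was Gja3 (-0.31 ± 0.11, limma adjusted p = 0.0961), a lens connexin, and 8 of the 10 genes were positive (median 0.08 against 0.02 over all probe sets). Among 8 other desmosome genes it was Evpl (0.17 ± 0.07, adjusted p = 0.154), which encodes envoplakin, and 6 of 8 were positive (median 0.08). In this comparison the 5 dimmest of 10 equal bins of brightness had medians from 0.03 to 0.09. The brightness of these lists was not compared with those bins. Among 18 other intercalated disc genes, which include Nrap and Xirp1, it was Cgnl1 (0.57 ± 0.19, adjusted p = 0.0836), which encodes paracingulin, and 11 of 18 were negative (median -0.05). Among 14 kinases, partners and turnover genes of the main ventricular connexin it was Mapre1 (-0.22 ± 0.08, adjusted p = 0.0968), which encodes a protein of growing microtubule ends, and 10 of 14 were negative (median -0.04).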

How the data were processed

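The files held 1 value per probe set and array. The authors made these log2 values with RMA, per the submitters' processing notes, a method that corrects background, quantile-normalises perfect-match probes and summarises each probe set. No source used here states the log base, which was taken as 2 from the range of the values, 3.24 to 14.54. If it were another, the tests would stand but not the folds. The 57 Affymetrix controls were left out and 31042 probe sets tested, with no filter on low signal. Symbols came from the platform's annotation table, with no genome build. Levels of different probe sets were not compared.

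A linear model in limma 3.58.1 (R 4.3.3) was fitted to all 16 arrays, with 1 mean per group and 12 residual degrees of freedom. Tests were two-sided, and ± is the standard error unless marked SD. The fit was tested on simulated data. Replicates are separate rats by their titles. With 4 arrays per group, precision is limited by their number. The members and lists were chosen with earlier results of these data known. Named beyond the 9 genes are called genes of 6 lists (or the lowest p in the sedentary line difference) and nearest genes by correlation. Alternatives were array centring, quantile normalisation of the summarised values, a filter at the median level, 1 probe set per gene, a trended robust variance, array weights, only the groups compared, the rat number as a replicate block, the second probe set, and leaving out each array. Rats with the same number are different animals. Deviations of same-numbered rats correlated at r from -0.231 to 0.261, over 0.1 in 4 of 11 pairs, so the numbers were not taken to pair the rats.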

Additional observations from a re-analysis of the deposited data

Results flagged for a closer look

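Of 64 sets of 4 arrays (16 probe sets in 4 groups), 3 held an array far from the other 3, by a gap above Dixon's 95% critical value, where chance gives about 1 in 20. Jup read 10.41 in HCR trained rat 4, against 10.51 to 10.52 in the other 3 rats. Dsp read 12.15 in LCR sedentary rat 2, against 12.51 to 12.53. Pkp2 read 10.17 in HCR sedentary rat 5, against 10.38 to 10.40, and that array is the one with low Xist and the narrowest interquartile range (1.967). Leaving these arrays out gave no call of the gene concerned by limma.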

How the results depend on the processing

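The count of the 9 genes called was 0 in all 7 comparisons under every alternative run. None of the 1520 alternative values was called (lowest adjusted p = 0.0594). They came from the brightest probe set of each gene, with the next brightest as 1 alternative. The dimmest Gja1 and Cdh2 probe sets were not among them. For Gja1 probe set 1369639_at the sedentary line difference had a limma adjusted p of 0.0578. It was 0.147 without HCR sedentary rat 5 and 0.119 after quantile normalisation. Whether that probe set would be called under the other alternatives, such as array weights, was not tested. Of the 1520 values 145 had the other sign than the value reported, all of them uncalled, and 40 of them were for the line difference averaged over training. With the rat number as a replicate block 16 of 63 values changed sign, and the largest change of any of the 63 values was 0.214. The lowest adjusted p among these 63 values of the brightest probe sets was 0.0719 under the block, and no call changed. Among the other named calls the block kept Pkp4 and Tbx2 (adjusted p = 0.0194 and 0.0392) and ended Nectin2 (0.0705). The calls outside the 9 genes were less steady. Pkp4 was called in 15 of 25 alternatives (adjusted p from 0.0147 to 0.646), and its second probe set reversed it to 0.148. Nectin2 was called in 16 of 24 (0.0185 to 0.164) and Tbx2 in 7 of 24 (0.0185 to 0.575). The cause was not tested. Over all probe sets the sedentary line count of 1549 ran from 543 with quantile normalisation to 4183 with array weights, from 35 without LCR sedentary rat 6 to 1994 without LCR trained rat 2, and was 3000 with the replicate block. The averaged line count of 1191 ran from 520 without HCR sedentary rat 4 to 2575 without LCR trained rat 2, and the trained line count of 30 from 11 with 1 probe set per gene to 53 without LCR trained rat 2. Training counts of 0 in HCR, 1 in LCR and 2 averaged reached at most 39, 4 and 11, and the interaction count stayed at 0, with 3068 at an unadjusted p under 0.05. Signal near background limits the dim probe sets most.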
